A study of Homo sapiens with 12 samples.

Results

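The genes described here are the 3885 gene symbols that 2 expression tables have in common, one for the hepatocellular carcinoma line Hep3B and one for the hepatocellular carcinoma line Huh7. They were chosen by name alone, as every symbol present in both tables, and make up 44.6% of the 8717 symbols listed for Hep3B and 51.6% of the 7533 listed for Huh7; 12365 symbols occur in either table. For each of them the change that came with lenvatinib resistance was computed within its own line, and the change in Huh7 was then compared with the change in Hep3B, to describe the genes that moved alike and the genes that moved in opposite ways.

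The study's 12 RNA libraries fall into 4 groups, 3 in each: the parental and the lenvatinib-resistant cells of Hep3B, and the same of Huh7. All cells grew in DMEM with fetal bovine serum. Every library is labelled with either agent, DMSO or lenvatinib, and none says which it received, so drug exposure at harvest and the acquired state cannot be told apart. Each line has 1 resistant group, and the sample titles do not say whether it stems from 1 derivative. The labels say nothing of separate cultures, and p-values therefore measure only the spread between these libraries. No allele or strain other than the line itself is given.

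Lenvatinib, taken by mouth against advanced liver cancer, blocks the receptor kinases for VEGF, FGF and PDGF as well as KIT and RET. Cells that keep growing in such a drug are known to reach that state by several routes, among them renewed signalling through the RAS-MAPK cascade or other receptor kinases, contact with the extracellular matrix through integrins, and shifts in differentiation and metabolism. Hep3B lacks p53 and carries integrated hepatitis B virus DNA, whereas Huh7 carries a mutant p53; both keep part of the hepatocyte programme, such as secretion of albumin, apolipoproteins and the fetal protein AFP.

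Values are scaled reads, that is, reads recovered from the deposited tables and multiplied by one factor per library. Hep3B entries are RefSeq transcripts and Huh7 entries are Ensembl genes, so levels are compared only within a line, and a change is the difference of mean log2(scaled reads + 1), resistant minus parental. A gene is called changed in a line when its limma adjusted p is under 0.05 over that whole table, and a difference between the lines (change in Huh7 minus change in Hep3B) is called when its adjusted p is under 0.05 over all 3885 symbols. Errors given after ± are standard errors with n = 3 libraries per group.

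The libraries held 6184929 to 7475184 reads in Hep3B and 11480608 to 14174202 in Huh7 over the listed genes. Of 10 hepatocyte markers, 4 were in both tables (AFP, APOB, APOH and TF) and all 4 were abundant in every library, with a summed level of 60220.1 to 175891 scaled reads in Hep3B and 324299 to 470985 in Huh7. Markers of other cell types were also read: of 7 fibroblast markers, COL1A1, COL1A2 and LUM were shared, of 5 endothelial markers PECAM1 and ESAM, of 5 leukocyte markers LYZ, and of 4 cholangiocyte markers KRT19 and EPCAM. The 25 symbols whose transcript and gene carry different current names in the reference tables, out of 3839 that could be looked up, were kept. Where a gene has several RefSeq transcripts the Hep3B entry counts only one of them: the Huh7 level exceeded the Hep3B level by a median log2 of 0.14 for the 1927 symbols with 1 RefSeq transcript and by 2.61 for the 709 with 5 or more, and the count of transcripts is given below wherever it bears on a named gene.

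Across the 3885 genes the resistance changes of the lines were not related: Pearson's r was -0.03 and Spearman's rho -0.03 across genes, which are not independent replicates, and no p is attached to them. The median change was 0.04 in Hep3B and -0.21 in Huh7 on the log2 scale. Both tables were rich in calls. Of all Hep3B entries, 49.5% were called, 27.6% higher and 21.9% lower in resistant cells, whereas the Huh7 table holds only genes with a deposited adjusted p below 0.05, so that 100% of its entries were called, 48% higher and 52% lower. Of the shared symbols, 2132 (54.9%) were called in both lines. Among these, 471 were higher in both resistant lines (12.1% of the 3885), 529 lower in both (13.6%), 486 higher in resistant Huh7 and lower in resistant Hep3B (12.5%), and 646 lower in resistant Huh7 and higher in resistant Hep3B (16.6%). Genes that changed in opposite ways thus numbered 1132 (29.1%) and genes that changed the same way 1000 (25.7%). The opposite genes were 53.1% of those called in both lines and 51.4% of the 259 that changed 2-fold or more in both. The remaining 824 higher and 929 lower genes of Huh7 were not called in Hep3B.

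**Figure D1:**
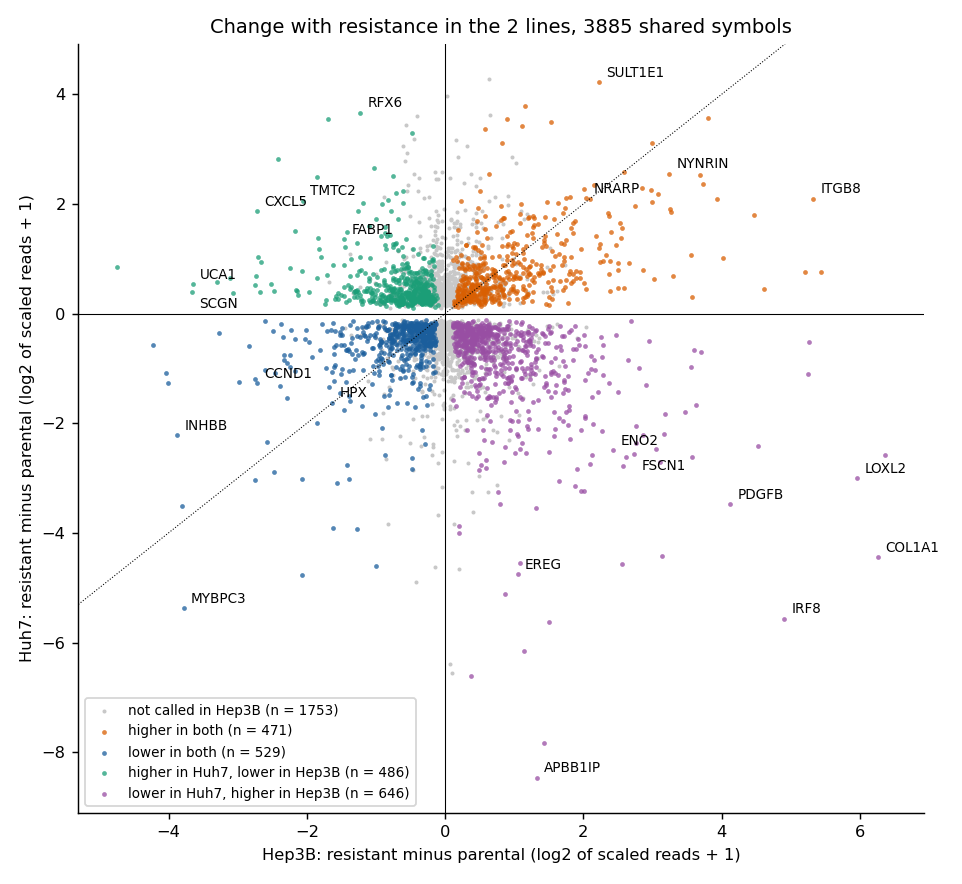
Change with resistance in Hep3B (horizontal axis) against Huh7 (vertical axis) for the 3885 shared symbols, both as resistant minus parental mean log2(scaled reads + 1); each point is 1 symbol, coloured by its class of calls, and the dotted line marks equal change. The points fill all 4 quadrants in similar numbers, with COL1A1, LOXL2 and IRF8 far out at the lower right, and no symbol lies on the horizontal zero line because the Huh7 table lists only genes that changed there.

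Tested directly, the change differed between the lines for 2606 symbols (67.1%), of which 1182 were higher in Huh7 (30.4%) and 1424 lower (36.7%). Every shared symbol had been selected for a change in Huh7, and the same Huh7 values enter the difference. The share therefore does not describe unselected genes, and 1002 of the called differences were of genes not called in Hep3B. The difference was 2-fold or more for 1123 of the 2606 symbols and 16-fold or more for 73. The median difference was -0.10 over all symbols. Median centring, which subtracts from each line's changes their median over that line's whole table, moved this median to 0.15. The split became 1542 higher and 1042 lower, so the share of higher calls, 45.4% here, was 59.7% after centring. Directions of small differences are to be read against that shift. Among the 1000 genes that changed the same way, 472 still differed in size, 287 with the larger change in Hep3B and 185 with the larger change in Huh7.

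The genes with the largest opposite changes were higher in resistant Hep3B and lower in resistant Huh7. They include COL1A1, which encodes the main chain of type I collagen, LOXL2, an enzyme that crosslinks collagen, PDGFB, the ligand of the PDGF receptors, IRF8, a transcription factor of the interferon-regulatory family best known from blood cells, and FSCN1, an actin-bundling protein of cell protrusions. COL1A1 had 23, 32.9 and 18.8 scaled reads in the parental Hep3B libraries and 1741, 2085 and 1984 in the resistant ones. In Huh7 it had 1662, 1547 and 1528 scaled reads in the parental Huh7 libraries and 62.3, 77.7 and 75.2 in the resistant ones. Resistant libraries were high in Hep3B and low in Huh7, with no overlap between groups in either. The change was 6.26 ± 0.16 in Hep3B and -4.45 ± 0.1 in Huh7. The difference of -10.70 ± 0.19 (adjusted p = 5.44e-25, limma) was the most negative of all 3885. Genes named for their class, their difference or their likeness were taken only where groups did not overlap in either line. Such separation was thus fixed by the choice of these genes, and it held for 59.7% of all 3885 symbols. 

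LOXL2 had 10.1, 16.4 and 8.92 scaled reads in the parental Hep3B libraries and 825, 752 and 752 in the resistant ones, and in Huh7 658, 591 and 555 scaled reads in the parental Huh7 libraries and 90.3, 57.7 and 77.3 in the resistant ones. Its groups were apart in both lines, with changes of 5.96 ± 0.19 and -3.0 ± 0.14. IRF8 had 1.84, 2.19 and 3.96 scaled reads in the parental Hep3B libraries and 116, 95.7 and 107 in the resistant ones, and in Huh7 157, 132 and 126 scaled reads in the parental Huh7 libraries and 11.4, 0 and 1.03 in the resistant ones. The resistant Huh7 libraries of IRF8 were uneven, with 1 library above the other 2 and 1 at 0, and its difference of -10.47 ± 0.67 carries the widest error of the 8 genes named in this class. PDGFB had 7.37, 5.48 and 8.92 scaled reads in the parental Hep3B libraries and 143, 127 and 153 in the resistant ones, and in Huh7 169, 181 and 162 scaled reads in the parental Huh7 libraries and 30.1, 9.45 and 10.3 in the resistant ones. It changed by 4.12 ± 0.26 and -3.48 ± 0.3.

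FSCN1 was the most abundant gene of the 8 named in this class. It had 2026, 2396 and 2262 scaled reads in the parental Hep3B libraries and 14358, 15564 and 14501 in the resistant ones, and in Huh7 2814, 2678 and 2486 scaled reads in the parental Huh7 libraries and 470.1, 445 and 434 in the resistant ones. All resistant libraries lay above the parental ones in Hep3B and below them in Huh7, with changes of 2.73 ± 0.06 and -2.56 ± 0.07 and a difference of -5.3 ± 0.09 (adjusted p = 5.92e-35, limma). ENO2, the neuronal enolase of glycolysis, had 65.4, 61.4 and 53.5 scaled reads in the parental Hep3B libraries and 311, 322 and 349 in the resistant ones, and in Huh7 208, 199.5 and 206 scaled reads in the parental Huh7 libraries and 28, 38.8 and 41.2 in the resistant ones. UCHL1, a ubiquitin hydrolase of neurons and endocrine cells, differed by -5.13 ± 0.16, and OLFML2A, a secreted olfactomedin-domain protein, by -5.81 ± 0.44.

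Other genes lower in resistant Huh7 and higher in resistant Hep3B had almost no reads in resistant Huh7 or in parental Hep3B. APBB1IP, an adaptor that brings RAP1 to talin and thereby activates integrins, had 356, 348 and 356 scaled reads in the parental Huh7 libraries and 0 in all 3 resistant ones, and was at least 340.1-fold lower against a floor of 3 reads over the group. In Hep3B it rose by 1.33 ± 0.25. ARHGAP23, a GTPase-activating protein, had 281 reads in parental and 1 in resistant Huh7, a ratio of 256 with an exact 95% counting interval of 45.7 to 10166, and rose by 1.14 ± 0.21 in Hep3B. UTS2R, the receptor of urotensin, came from 2 reads in parental Hep3B to 181 in resistant Hep3B, a ratio of 90.6 (exact 95% counting interval 24.7 to 754), and fell by 1.10 on the log2 scale in Huh7. Fitted log2 changes of genes with so few reads depend on the pseudocount, and these intervals cover counting error only.

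In the other opposite class, higher in resistant Huh7 and lower in resistant Hep3B, the named genes included CXCL5, a chemokine that attracts neutrophils through CXCR2. It had 2499.7, 2123 and 2253 scaled reads in the parental Hep3B libraries and 343, 332 and 361 in the resistant ones, and in Huh7 1309.5, 1507 and 1666 scaled reads in the parental Huh7 libraries and 5728, 5285 and 5252 in the resistant ones. No groups overlapped, the changes were -2.73 ± 0.07 and 1.86 ± 0.07, and the difference was 4.59 ± 0.1 (adjusted p = 4.13e-32, limma). FABP1, the liver fatty acid carrier, had 324, 240.2 and 331 scaled reads in the parental Hep3B libraries and 120.2, 91.6 and 111 in the resistant ones, and in Huh7 3264, 3186 and 2667 scaled reads in the parental Huh7 libraries and 8334, 7379.8 and 7560.5 in the resistant ones. CP, the copper-carrying plasma protein ceruloplasmin, had 76.4, 101 and 67.4 scaled reads in the parental Hep3B libraries and 37.6, 27.5 and 33.5 in the resistant ones, and in Huh7 1748, 2103 and 2047 scaled reads in the parental Huh7 libraries and 4677, 4589 and 5122 in the resistant ones. Both liver genes were lower in every resistant than in every parental Hep3B library and higher in every resistant Huh7 library, with differences of 2.81 ± 0.16 and 2.57 ± 0.23.

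RFX6, a transcription factor of gut and pancreatic endocrine cells, fell by 1.23 in Hep3B and rose by 3.66 ± 0.18 in Huh7. TMTC2, an ER mannosyltransferase, changed by -2.06 ± 0.15 and 2.06 ± 0.2. MPZL2, an epithelial adhesion protein, differed by 2.65 ± 0.11, DZIP1L, a protein of the ciliary base, by 3.0 ± 0.22, and FAM86C2P, a pseudogene whose reads could stem from its near-identical relatives, by 2.26 ± 0.25. Among the remaining genes with the most positive differences, the decrease in Hep3B made up most of the gap. UCA1, a long non-coding RNA first described in urothelial carcinoma, fell by 3.65 in Hep3B and rose by 0.54 ± 0.07 in Huh7. SCGN, a calcium-binding protein of neuroendocrine cells, fell by 3.67 and rose by 0.39 ± 0.05. The corresponding changes were -3.3 ± 0.27 and 0.59 ± 0.11 for SLC6A14, an amino acid importer, and -3.12 ± 0.23 and 0.65 ± 0.07 for SPTLC3, a subunit of the enzyme that starts sphingolipid synthesis; the joint fit of both lines no longer called SCGN in Huh7 and the GC-adjusted fit no longer called SLC6A14 in both lines.

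The promoters of a member from each class are shown because the genes move alike or apart in cells of the same tissue origin. Each runs from 250 bases before to 50 bases after the annotated start, 5′ to 3′ on the gene's strand, as given by RefSeq for GRCh38.p14, whereas the expression values were made on GRCh37. CXCL5 (higher in Huh7, lower in Hep3B) lies at chr4:73998628-73998927 on the minus strand, ENO2 (lower in Huh7, higher in Hep3B) at chr12:6914330-6914629 on the plus strand, SULT1E1 (higher in both) at chr4:69860096-69860395 on the minus strand, and HPX (lower in both) at chr11:6440938-6441237 on the minus strand. Capitals mark every match, on either strand, to 5 searched motifs, namely the TATA box with the letters TATAAA, the CCAAT box by its name, the GC box as GGGCGG, the site of AP-1 as TGANTCA, and the half-site of HNF1 as GTTAAT.
CXCL5: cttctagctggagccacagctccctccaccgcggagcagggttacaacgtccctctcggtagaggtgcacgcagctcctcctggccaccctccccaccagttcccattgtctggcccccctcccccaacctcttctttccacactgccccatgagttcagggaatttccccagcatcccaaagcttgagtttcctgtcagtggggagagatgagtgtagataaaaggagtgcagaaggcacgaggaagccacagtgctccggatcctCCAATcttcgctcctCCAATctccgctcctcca
ENO2: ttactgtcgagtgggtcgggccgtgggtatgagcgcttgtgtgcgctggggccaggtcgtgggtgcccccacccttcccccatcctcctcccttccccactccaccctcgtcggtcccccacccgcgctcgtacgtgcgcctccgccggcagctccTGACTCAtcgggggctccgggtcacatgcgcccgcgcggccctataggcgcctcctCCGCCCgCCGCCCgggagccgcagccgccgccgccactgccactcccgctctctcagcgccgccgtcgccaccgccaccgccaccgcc
SULT1E1: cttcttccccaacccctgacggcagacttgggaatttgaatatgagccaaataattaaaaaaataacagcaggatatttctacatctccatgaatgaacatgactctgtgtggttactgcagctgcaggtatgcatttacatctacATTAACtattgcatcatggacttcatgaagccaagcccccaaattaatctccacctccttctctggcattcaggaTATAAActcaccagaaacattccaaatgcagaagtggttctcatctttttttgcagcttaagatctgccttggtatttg
HPX: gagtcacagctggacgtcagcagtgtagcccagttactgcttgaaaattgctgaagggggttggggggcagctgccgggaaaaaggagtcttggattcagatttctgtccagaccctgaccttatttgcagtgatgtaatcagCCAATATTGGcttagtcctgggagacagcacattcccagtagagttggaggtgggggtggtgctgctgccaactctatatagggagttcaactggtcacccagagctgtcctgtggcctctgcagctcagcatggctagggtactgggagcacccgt
The CXCL5 window holds CCAAT matches near its end, ENO2 an AP-1 match and adjoining GC boxes read on the other strand, SULT1E1 a TATA match and an HNF1 half-site match on the other strand, and HPX a CCAAT match that adjoins a second one on the opposite strand. Among the 27305 promoters of the reference table, 7.76% held the AP-1 letters, 6.89% the HNF1 letters, 11.95% the TATA letters, 35.7% CCAAT and 44.6% the GC box. A match is a description of letters and not of a bound site. Promoter sequences were found for 79.3% of the shared symbols, under the 80% needed for a comparison, so a comparison of motifs between the classes is void and none is given.

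Genes higher in both resistant lines included NYNRIN, SULT1E1, ITGB8 and NRARP. SULT1E1, the estrogen sulfotransferase, had 47.9, 39.5 and 40.6 scaled reads in the parental Hep3B libraries and 198, 212 and 199 in the resistant ones, and in Huh7 30.4, 42.8 and 25.9 scaled reads in the parental Huh7 libraries and 655, 648 and 567 in the resistant ones. It rose in both lines without overlap of the groups, by 2.23 ± 0.16 and 4.23 ± 0.16, and more so in Huh7 (difference 2.0 ± 0.22, adjusted p = 4.67e-10, limma). ITGB8, the integrin subunit that helps release active TGF-beta from its latent form, rose from 3 reads over the parental Hep3B libraries to 218 in the resistant ones, a ratio of 72.8 (exact 95% counting interval 24.6 to 356). In Huh7 it had 16.7, 24.4 and 24.1 scaled reads in the parental Huh7 libraries and 86.1, 86.1 and 115 in the resistant ones. Its change in Huh7 was 2.1 ± 0.23, so both lines gained it and Hep3B gained more.

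NRARP, a feedback inhibitor of Notch signalling, had 167, 194 and 164 scaled reads in the parental Hep3B libraries and 750.3, 764 and 656 in the resistant ones, and in Huh7 45.1, 36.6 and 50.02 scaled reads in the parental Huh7 libraries and 202, 194 and 177 in the resistant ones. The changes of 2.04 ± 0.1 and 2.11 ± 0.16 differed by 0.07 ± 0.19, with a 95% interval of -0.32 to 0.45. NYNRIN, a gene derived from a retroviral element, rose by 3.24 ± 0.15 and 2.55 ± 0.13, a difference that lost its call after median centring and after GC adjustment. ITGA3, the alpha chain of a laminin-binding integrin, rose by 2.99 ± 0.18 and 2.03 ± 0.16. GALNT6, an enzyme that starts O-linked glycosylation, rose by 3.93 ± 0.36 and 2.1 ± 0.18. PRSS22, a secreted serine protease, and AGPAT4, an enzyme of phospholipid synthesis, also rose in both, by 2.15 ± 0.23 and 2.35 ± 0.29 and by 2.01 ± 0.14 and 2.27 ± 0.18; neither difference passed the test.

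Genes lower in both resistant lines included hormones and plasma proteins. HPX, the heme carrier hemopexin, had 1762, 1483 and 1883 scaled reads in the parental Hep3B libraries and 587, 515 and 541 in the resistant ones, and in Huh7 4793, 4689 and 4220.0 scaled reads in the parental Huh7 libraries and 1504, 1451 and 1487 in the resistant ones. It fell in both, with changes of -1.64 ± 0.08 and -1.62 ± 0.06, and the 95% interval of the difference ran from -0.19 to 0.22. NPPB, which encodes the natriuretic peptide BNP, had 786, 618 and 892 scaled reads in the parental Hep3B libraries and 226, 187 and 213 in the resistant ones, and in Huh7 1470.1, 1575 and 1301 scaled reads in the parental Huh7 libraries and 411, 341 and 335 in the resistant ones. Its changes were -1.86 ± 0.12 and -2.0 ± 0.09, with no overlap of groups. INHBB, a subunit of activin B, had 572, 536 and 628 scaled reads in the parental Hep3B libraries and 40.4, 32.6 and 42.9 in the resistant ones, and in Huh7 143, 149 and 110.4 scaled reads in the parental Huh7 libraries and 31.1, 22 and 30.9 in the resistant ones. It fell in both and further in Hep3B, with a difference of 1.66 ± 0.24 (adjusted p = 3.55e-07, limma).

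NID2, a basement membrane nidogen, fell by 2.08 in Hep3B and by 3.02 in Huh7. PTGDR2, a prostaglandin D2 receptor, changed by -2.47 ± 0.3 and -2.89 ± 0.12. MYBPC3, known as a heart muscle protein, fell by 3.78 in Hep3B and from 241 to 3 reads in Huh7, a ratio of 73.3 (exact 95% counting interval 24.8 to 358); its difference between lines lost the call with a pseudocount of 10, quantile normalization or GC adjustment. ALPK3, an alpha-kinase, fell by 1.46 and 1.76, a difference of -0.3 ± 0.11 that was 0.12 after GC adjustment and lost its call after median centring (-0.043), with edgeR (-0.22) and DESeq2 (-0.16), and without resistant library 3 (-0.24) or parental library 2 (-0.25) of Huh7. GPD1L, an NAD-linked glycerol phosphate dehydrogenase, changed by -1.51 ± 0.07 and -1.44 ± 0.09.

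**Figure D2:**
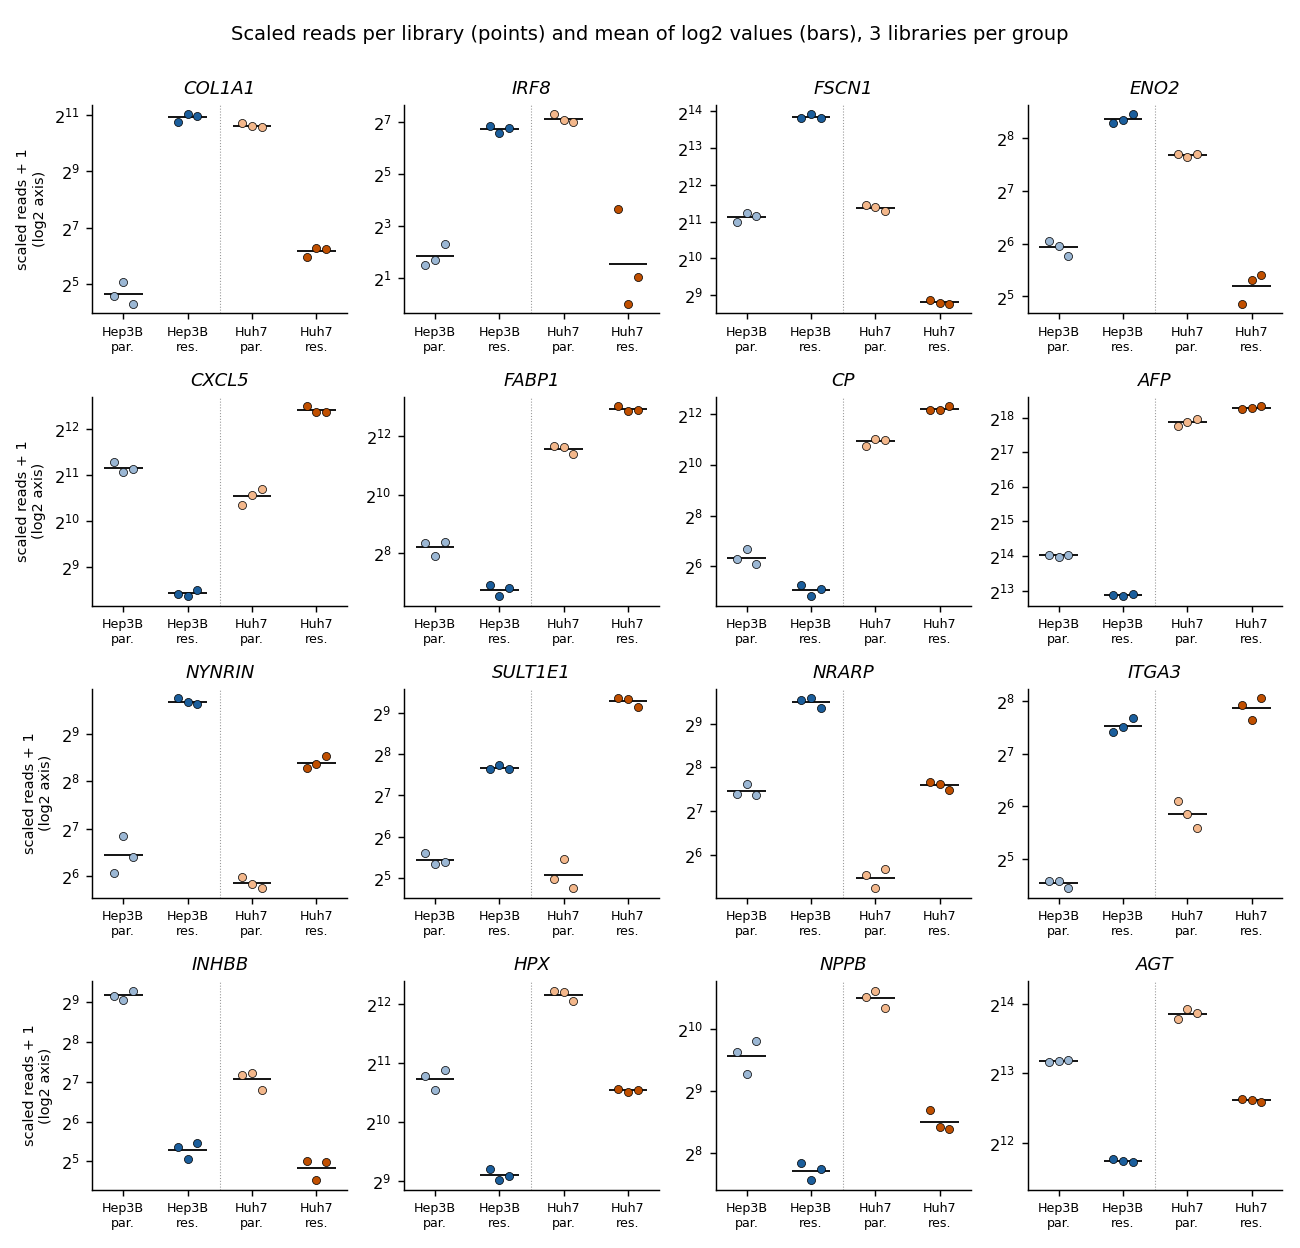
Scaled reads + 1 per library on a log2 axis for 16 genes, with 1 class of calls in each row of 4 (from the top row down: lower in Huh7 and higher in Hep3B, higher in Huh7 and lower in Hep3B, higher in both, and lower in both); points are the 3 libraries of each group and bars their mean on the log2 scale. Parental and resistant points are apart in every panel and line, which the choice of genes required for all of them except AFP. Only the resistant Huh7 libraries of IRF8 spread widely.

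Alike in size was defined as changed in the same direction in both lines with the 95% interval of the difference inside -0.5 to 0.5 on the log2 scale. This held for 398 genes, 147 higher and 251 lower. The largest were CCNG2, an unconventional cyclin of resting cells (1.28 ± 0.08 in Hep3B and 1.38 ± 0.08 in Huh7), CYP27A1, a mitochondrial enzyme of bile acid synthesis (1.15 ± 0.07 and 1.0 ± 0.06), KREMEN1, a receptor of the Wnt inhibitor DKK1 (0.96 ± 0.13 and 1.11 ± 0.09), and the NRARP of the previous class. On the lower side were AGT, the liver-made precursor of angiotensin, together with HPX, NPPB and GPD1L. AGT had 9129, 9210.1 and 9347 scaled reads in the parental Hep3B libraries and 3487, 3428 and 3382 in the resistant ones, and in Huh7 14041, 15579 and 14980.2 scaled reads in the parental Huh7 libraries and 6329, 6278 and 6173 in the resistant ones. It fell in every resistant library of both lines, with changes of -1.43 ± 0.04 and -1.25 ± 0.05, and although this was alike in size the difference of 0.18 ± 0.06 passed the test (adjusted p = 0.013, limma). After GC adjustment the differences were -0.27 for CCNG2, 0.40 for CYP27A1, 0.81 for NRARP and 0.41 for HPX, so that their likeness in size rests on the unadjusted scale.

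Many extracellular matrix genes changed in opposite ways. For this and the later lists, the shares over all 3885 symbols were 12.1% higher in both and 13.6% lower in both. The opposite classes held 12.5% (higher in Huh7, lower in Hep3B) and 16.6% (the reverse), and 67.1% had a called difference. Of 44 listed genes of the matrix and of collagen crosslinking, 22 were shared, and 12 of these were lower in resistant Huh7 and higher in resistant Hep3B, 5 were lower in both and none was higher in resistant Huh7 and called in Hep3B. The median change was 0.51 in Hep3B and -1.02 in Huh7, beside 0.04 and -0.21 over all symbols. The difference passed for 18 of the 22, 16 of them lower in Huh7. Besides COL1A1 and LOXL2, COL1A2, the second chain of type I collagen, had means of 79.3 and 320.5 scaled reads in parental and resistant Hep3B and 1958 and 519 in Huh7. COL12A1, a collagen that decorates fibrils, rose by 2.5 ± 0.22 in Hep3B, where only 1 of its 6 RefSeq transcripts is counted, and fell by 1.44 in Huh7.

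COL1A1 and COL1A2 are also fibroblast markers. The summed level of the 3 shared fibroblast markers was 417.8 to 485.2 scaled reads in parental and 2171 to 2449 in resistant Hep3B, and 4161 to 4350 in parental and 884.02 to 888.4 in resistant Huh7. LUM, the remaining marker, did not follow the collagens in Hep3B, where it fell by 2.38, and fell by 1.32 in Huh7. No shared fibroblast marker was at 0 in any library. The shared endothelial markers summed to 28.5 to 46.6 and 81.4 to 82.6 scaled reads in parental and resistant Hep3B and 119.1 to 162.1 and 232.03 to 250.3 in Huh7, and the leukocyte marker LYZ had 435.3 to 520.1 and 89.6 to 106.7 in Hep3B and 6443 to 6650.4 and 5237 to 5400.5 in Huh7. The part of other cell types in the matrix result was not tested.

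Integrins and adhesion genes held no opposite calls. Of 9 shared members of 25 listed, 3 were higher in both lines, ITGB8 and ITGA3 among them, and 1 was lower in both. The difference passed for 5 lower and 2 higher in Huh7, with a median of -0.64. ITGA5, the fibronectin receptor chain, had a change of -0.05 ± 0.06 in Hep3B (not called) and rose by 0.97 ± 0.08 in Huh7, and EPCAM, the epithelial adhesion protein, had 0.09 ± 0.04 (not called) and rose by 1.13 ± 0.06. ITGB1, the common beta chain, fell by 0.53 in Huh7, while its Hep3B entry, 1 of 3 transcripts, held a mean of only 3.61 scaled reads in the parental cells.

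Liver genes did not go one way. All 4 shared hepatocyte markers were lower in resistant Hep3B and higher in resistant Huh7. AFP, the fetal serum protein, had 16872, 16037 and 16846 scaled reads in the parental Hep3B libraries and 7517, 7366 and 7603 in the resistant ones, and in Huh7 221008, 241579 and 255963 scaled reads in the parental Huh7 libraries and 310565, 316730.4 and 328812 in the resistant ones. No groups overlapped. The change was -1.15 ± 0.04 in Hep3B and 0.41 ± 0.05 in Huh7, APOB, the protein of very low density lipoprotein, changed by -1.55 ± 0.13 and 0.27 ± 0.05, TF, the iron carrier transferrin, by -0.73 ± 0.04 and 0.46 ± 0.04, and APOH, a phospholipid-binding plasma protein, by -1.05 ± 0.05 and 0.24 ± 0.07. The increases in Huh7 were small, and with GC-adjusted changes 1 of the 4 was still called in opposite directions, while all 4 differences remained called. With quantile normalization AFP was not called in opposite directions. Of the 4 hepatocyte markers listed only for Huh7, 1 was higher and 3 were lower in every resistant than in every parental library. Among them AHSG, the plasma protein fetuin, had means of 19264 and 7926 scaled reads in parental and resistant Huh7, and FGB, a fibrinogen chain, 52449 and 30105.

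Of 52 secreted liver proteins, 25 were shared: 9 were higher in Huh7 and lower in Hep3B, 3 the reverse, 7 lower in both and none higher in both, and the difference passed for 14 higher and 7 lower in Huh7. APOA2, a protein of high density lipoprotein, had the largest positive difference of this list, 2.22 ± 0.06, falling by 0.79 in Hep3B and rising by 1.43 ± 0.05 in Huh7. ORM2, an acute-phase glycoprotein with a near-identical neighbour, went against this, with -0.48 ± 0.15 in Hep3B, a call lost without resistant library 1 or parental library 3, and -2.64 ± 0.09 in Huh7. A1BG, a plasma protein of unknown function, had 15 reads in parental and 0 in resistant Huh7, at least 4.56-fold lower against a floor of 3 reads over the group.

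Transcription factors were mixed. Among 11 shared members of the liver transcription factor list, 3 were higher in Huh7 and lower in Hep3B, 1 the reverse and 1 lower in both. The first 3 include a factor of the intestine, CDX2. CDX2, the intestinal homeobox factor, had 130 reads in parental and 3 in resistant Hep3B, a ratio of 43.3 (exact 95% counting interval 14.5 to 213), and rose by 0.85 ± 0.07 in Huh7. HNF4G had -0.15 ± 0.09 in Hep3B (not called) and rose by 1.6 ± 0.09 in Huh7. NR0B2, the nuclear receptor SHP that restrains bile acid synthesis, rose by 0.9 ± 0.07 in Hep3B and fell by 1.18 in Huh7. GATA4 rose by 0.63 ± 0.05 in Huh7, and its Hep3B entry is 1 of 5 transcripts with a mean under 10 scaled reads.

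Oncofetal and progenitor genes included opposite changes both ways, with 3 of 12 shared genes higher in Huh7 and lower in Hep3B and 3 the reverse. Over all shared symbols these classes held 12.5% and 16.6%. LIN28B, which blocks maturation of the let-7 microRNAs, fell by 1.85 in Hep3B and rose by 0.65 ± 0.06 in Huh7. RTL1, an imprinted gene of retrotransposon origin, had 2 reads in parental and 394 in resistant Hep3B, a ratio of 197 (exact 95% counting interval 54.3 to 1635), and 17 and 0 reads in Huh7, at least 5.17-fold lower; RTL1 has an antisense partner and the counting strand is not given in the sources used here. LIN28A had 21 and 0 reads in parental and resistant Huh7, at least 6.39-fold lower, with 0.34 ± 0.55 in Hep3B (not called).

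**Figure D3:**
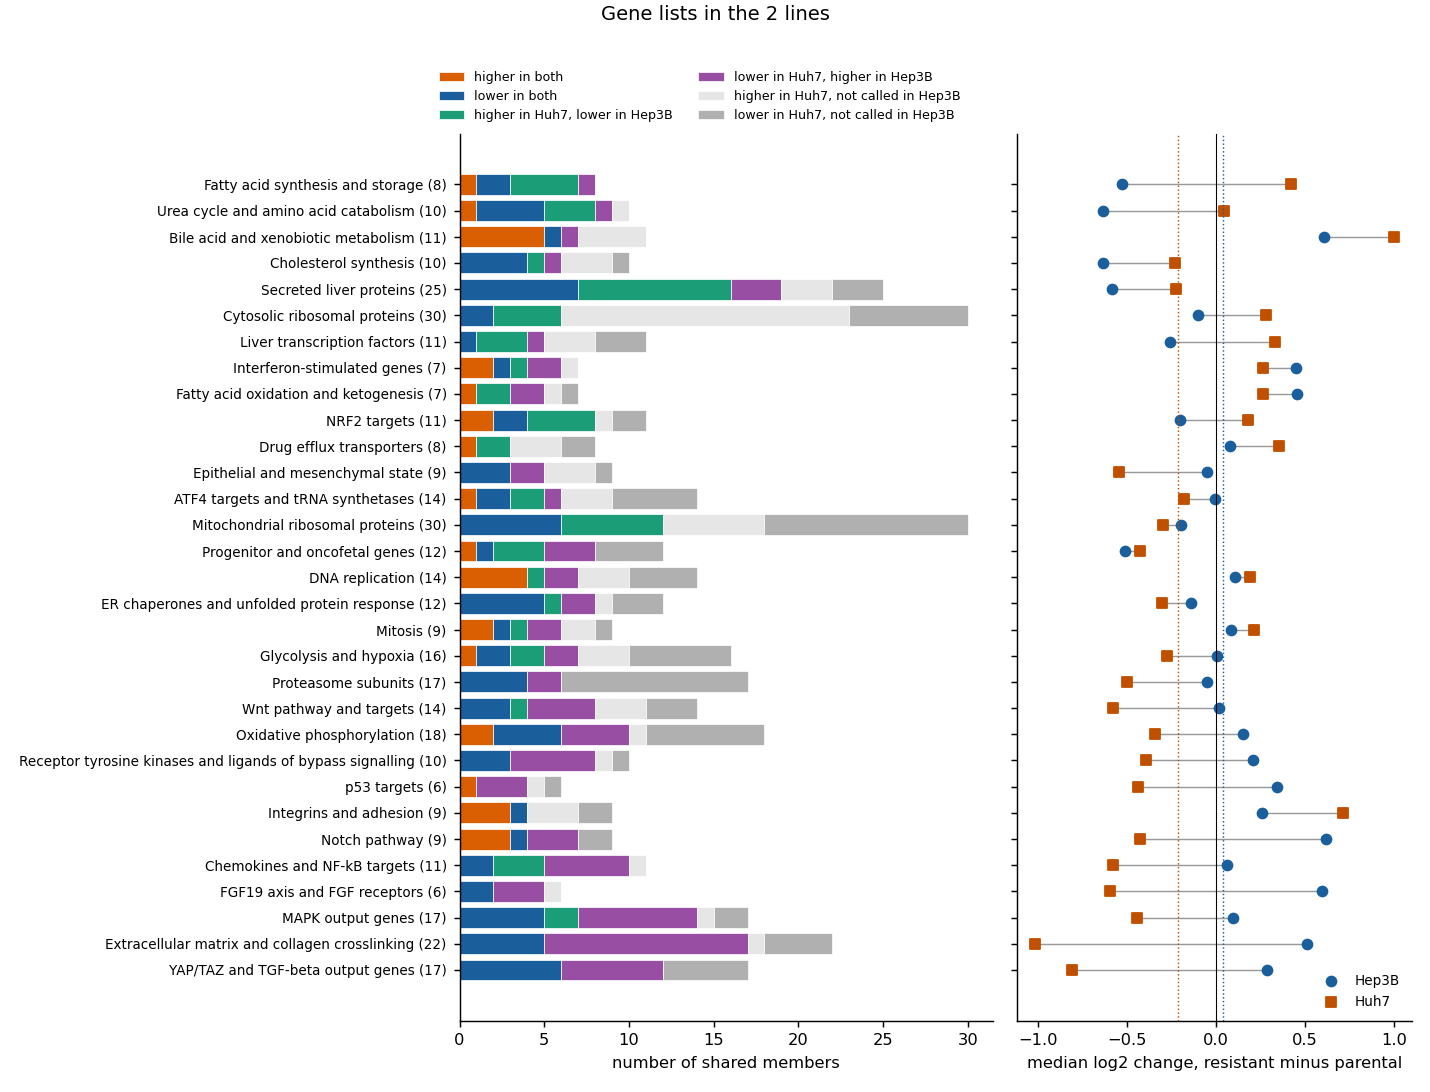
Left, the shared members of each gene list by class of calls, with the number of shared members in brackets; right, the median log2 change of the same members in Hep3B (circles) and Huh7 (squares), with dotted lines at the medians of all 3885 symbols, 0.04 and -0.21. Lists are sorted by the median difference, from YAP/TAZ and TGF-beta output, matrix and MAPK output genes at the bottom to fatty acid synthesis at the top.

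Output genes of growth-factor signalling also moved apart. The MAPK output list holds genes that ERK activity is known to induce, such as immediate-early transcription factors. Of its 17 shared members, 7 were lower in Huh7 and higher in Hep3B, 2 the reverse and 5 lower in both, and the difference passed for 16, with 10 lower and 6 higher in Huh7. EGR1 rose from a mean of 598 to 4643 scaled reads in Hep3B and fell from 822 to 579 in Huh7, a difference of -3.46 ± 0.11 (adjusted p = 4.97e-24, limma). The AP-1 genes JUNB and JUN rose by 2.01 ± 0.06 and 1.3 ± 0.05 in Hep3B and fell by 0.40 and 1.10 in Huh7, and IER2, another immediate-early gene, rose by 1.59 ± 0.05 and fell by 0.81. JUNB lost its opposite calls with GC adjustment.

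YAP/TAZ and TGF-beta output genes, which report cell contact and tension, gave the most negative median difference of the plotted lists, -1.49. Of 17 shared members, 6 were lower in Huh7 and higher in Hep3B and 6 lower in both, and the difference passed for 15, of which 13 were lower in Huh7. CYR61, a matricellular YAP target, rose by 1.58 ± 0.05 and fell by 1.79, a difference of -3.37 ± 0.07. TGFBI, a TGF-beta-induced matrix protein, rose by 0.61 ± 0.04 and fell by 1.54, and INHBE, an activin subunit made in liver, rose by 0.94 ± 0.05 and fell by 1.93. INHBA fell by 1.78 in Huh7 and had 0.5 ± 0.31 in Hep3B (not called). The state genes of the epithelial and mesenchymal list did not go one way, with 2 of 9 lower in Huh7 and higher in Hep3B and 3 lower in both; VIM, the mesenchymal filament protein, fell by 0.23 in Hep3B and 1.38 in Huh7, and MMP14, a membrane-bound collagenase, rose by 0.72 ± 0.05 and fell by 0.54.

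Receptors and ligands near the drug's targets were also split. Of 10 shared kinase and bypass-ligand genes, 5 were lower in Huh7 and higher in Hep3B and 3 lower in both. The count of 5 was 1 with median centring, 2 with DESeq2, 4 with quantile normalization and 4 with GC adjustment. The median difference of this list, -0.46, was -0.053 with GC adjustment. EREG, the EGF-receptor ligand epiregulin, had 1089, 954 and 1006 scaled reads in the parental Hep3B libraries and 2274, 2044 and 2013 in the resistant ones, and in Huh7 171, 193 and 225 scaled reads in the parental Huh7 libraries and 10.4, 3.15 and 7.21 in the resistant ones. It rose in every resistant Hep3B library and fell in every resistant Huh7 library, with changes of 1.05 ± 0.07 and -4.75 ± 0.3 and a difference of -5.8 ± 0.31. MERTK, a receptor for apoptotic-cell ligands, rose by 1.06 ± 0.12 and fell by 0.36. For the EGF-receptor ligands HBEGF and AREG the increases in Hep3B, 0.39 ± 0.15 and 0.26 ± 0.08, lost their call in several alternatives, including for HBEGF those without resistant or parental library 1 or 2 and for AREG those without resistant library 3 or parental library 2, while the decreases in Huh7 were 1.5 and 0.40.

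In the FGF19 axis, by which bile-acid signalling reaches liver cells, 6 of 14 listed genes were shared. FGF19, the ligand, fell in both lines, by 2.17 in Hep3B and 0.47 in Huh7, and the difference of 1.69 ± 0.16 passed. FGF2 rose by 0.93 ± 0.18 and fell by 0.69. FGFR3 fell by 1.17 in Huh7 and rose by 0.56 ± 0.18 in Hep3B, where 1 of 6 transcripts is counted and that call was lost in 5 alternatives, 2 of them without resistant library 3 or without parental library 2. CCND1, the G1 cyclin that neighbours FGF19 in the genome, had 3898, 4203 and 3713 scaled reads in the parental Hep3B libraries and 623, 627 and 535 in the resistant ones, and in Huh7 10923, 11332 and 11366 scaled reads in the parental Huh7 libraries and 4715, 4587 and 4679 in the resistant ones. It fell in every resistant library of both lines, with changes of -2.73 ± 0.07 and -1.27 ± 0.05, further in Hep3B. MYC went opposite ways, falling by 0.57 in Hep3B and rising by 0.55 ± 0.06 in Huh7. Of the VEGF and PDGF genes other than PDGFB, PDGFRA rose in both, by 0.71 ± 0.08 and 0.48 ± 0.13, and VEGFA fell by 0.81 in Huh7 with a Hep3B entry, 1 of 20 transcripts, near 10 scaled reads.

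Notch genes rose mainly in Hep3B. Of 9 shared, 3 were higher in both, 3 were lower in Huh7 and higher in Hep3B and 1 was lower in both. The difference passed for 7 lower and 1 higher in Huh7, against 3 and 2 with GC adjustment. The median difference of this list, -0.75, was -0.20 with GC adjustment. NOTCH3 rose from a mean of 339 to 2473 scaled reads in Hep3B and from 64.2 to 109.8 in Huh7, a larger change in Hep3B by 2.07. NOTCH1 rose by 1.11 ± 0.08 and fell by 1.18, and the Notch target HES1 rose by 0.62 ± 0.06 and fell by 0.43. MAML2, a Notch coactivator, rose by 1.16 ± 0.19 and 3.78 ± 0.5. Among 14 Wnt genes 4 were lower in Huh7 and higher in Hep3B, beside 16.6% of all shared symbols. These 4 included the receptors FZD2 (1.56 ± 0.08 and -1.06 ± 0.23) and FZD1 (1.17 ± 0.1 and -0.51 ± 0.1), and the secreted Wnt inhibitor NOTUM (0.49 ± 0.14 and -2.84 ± 0.24). FZD8 fell by 2.53 in Huh7 and had -0.05 ± 0.14 in Hep3B (not called).

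Chemokine and interferon genes contained opposite changes in both senses. Of 11 shared chemokines and NF-kB targets, 3 were higher in Huh7 and lower in Hep3B, 5 the reverse and 2 lower in both. CXCL10, an interferon-induced chemokine, fell by 2.17 and rose by 1.5 ± 0.26, as CXCL5 did, whereas CXCL12, the ligand of CXCR4, rose by 1.91 ± 0.24 and fell by 2.84. TNFAIP2 rose by 0.87 ± 0.06 and fell by 1.26. Of 7 interferon-stimulated genes, IFI35 rose by 0.68 ± 0.15 and fell by 2.35, IFIT5, an RNA-binding antiviral protein, rose by 1.86 ± 0.35 and fell by 0.64, SP100, a nuclear body protein, rose in both, and OAS3, an RNA sensor, rose by 1.41 ± 0.07 in Huh7 with -0.37 ± 0.16 in Hep3B (not called). HLA-B, an antigen-presenting class I chain with close paralogs, rose by 0.66 ± 0.13 and fell by 1.67, while its partner B2M fell in both, by 0.73 and 0.32. MT2A, a metal-binding protein from a family of near-identical genes, rose by 1.09 ± 0.24 and fell by 1.52.

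Several metabolic lists held more differences higher in Huh7 than lower. Of 8 shared genes of fatty acid synthesis and storage, 4 were higher in Huh7 and lower in Hep3B and 1 the reverse, and the median change was -0.53 in Hep3B and 0.42 in Huh7. ME1, the cytosolic malic enzyme that supplies NADPH, changed by -0.7 ± 0.07 and 1.29 ± 0.07, SCD, the stearoyl-CoA desaturase, by -0.93 ± 0.04 and 0.23 ± 0.04, and PNPLA3, a lipid-droplet protein, by -0.67 ± 0.08 and 0.61 ± 0.09. For ACACB, an acetyl-CoA carboxylase, the decrease in Hep3B (1 of 9 transcripts) lost its call without resistant library 1 or 2 and without parental library 1 or 3. Fatty acid oxidation was split: CPT1A, which admits fatty acids to mitochondria, rose by 1.53 ± 0.09 and fell by 1.06, ETFB, an electron carrier of this pathway, rose by 1.85 ± 0.27 and fell by 0.85, and FABP1 moved the other way.

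Of 10 shared genes of the urea cycle and amino acid breakdown, the difference passed for 9, with 8 higher in Huh7. GOT1, a transaminase, changed by -1.19 ± 0.06 and 0.22 ± 0.06. AGXT, which detoxifies glyoxylate, fell in both, by 2.32 and 0.84. TAT, the tyrosine transaminase, was the exception, at 1.43 ± 0.57 and -1.34 ± 0.21, with few reads in Hep3B and a call there that was lost in 11 alternatives, including those without resistant library 2 or 3 and without parental library 2 or 3. Of 11 bile acid and xenobiotic genes, 5 were higher in both lines, SULT1E1 and CYP27A1 among them. Among cholesterol genes 4 of 10 were lower in both.

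The efflux pump ABCC2 rose by 1.26 ± 0.05 in Huh7 and fell by 0.75 in Hep3B, and 4 of 11 shared NRF2 targets, ABCC2 and ME1 among them, showed that pattern. SLC7A11, the cystine importer, rose by 1.24 ± 0.07 in Huh7, and its decrease of 0.18 in Hep3B lost its call in 7 alternatives, including those without resistant library 1 or 3 and without parental library 2 or 3. ABCG2, another efflux pump, had 31 reads in parental and 3 in resistant Hep3B for 1 of its 13 transcripts, a ratio of 10.3 (exact 95% counting interval 3.22 to 52.7), and rose by 0.41 ± 0.08 in Huh7. AKR1B10, a carbonyl reductase, rose in both, from 3 to 30 reads in Hep3B, a call lost without resistant library 1 or 3, and by 0.47 ± 0.09 in Huh7. In the glycolysis and hypoxia list, whose median difference went to 0.0002 with GC adjustment, ENO2 was followed by SLC2A3, a glucose transporter that fell by 3.83 in Huh7 with -0.82 ± 0.57 in Hep3B (not called), and EGLN3, an oxygen sensor that rose by 3.63 ± 0.42 in Huh7 with 0.65 ± 0.42 in Hep3B (not called).

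Large protein complexes moved by small amounts, and the ribosomal and proteasome genes mostly without a call in Hep3B. Over all 3885 symbols the difference passed for 67.1%, with 30.4% higher and 36.7% lower in Huh7. Of 30 shared cytosolic ribosomal proteins, 17 were higher in Huh7 and not called in Hep3B, 7 lower in Huh7 and not called in Hep3B, 4 higher in Huh7 and lower in Hep3B and 2 lower in both; the median difference was 0.37, and 15 of the 18 called differences were higher in Huh7. RPL4, with 1 transcript, changed by -0.67 ± 0.04 and 0.34 ± 0.04. Many ribosomal genes have processed pseudogenes, so their counts are uncertain. Of 17 proteasome subunits, 13 differences passed and 12 were lower in Huh7; PSMB1, a core subunit, had 0.01 ± 0.05 (not called) and -0.8 ± 0.06, and PSMD3, a lid subunit, rose by 0.2 ± 0.05 and fell by 0.58. After median centring 9 of the proteasome differences passed, 7 of them lower. Of 18 respiratory-chain genes, 13 differences passed and 12 were lower in Huh7, against 7 lower and 5 higher after median centring, 9 and 5 with DESeq2 and 7 and 4 with GC adjustment; COX4I1 rose by 0.36 ± 0.06 and fell by 0.29. The median difference of 30 mitochondrial ribosomal proteins was -0.04 and changed sign in 6 alternatives, with MRPL16 (-1.0 ± 0.08 and 0.2 ± 0.06) and MRPL30 (-0.45 ± 0.08 and 0.74 ± 0.06) in opposite directions.

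Replication and mitosis genes did not favour either line, and the signs of both list medians changed with scaling. E2F1, which drives S-phase genes, rose by 0.91 ± 0.07 and fell by 0.27, TOP2A, a topoisomerase of dividing cells, rose by 0.4 ± 0.04 and fell by 0.40, and CCNA2, the S-phase cyclin, fell by 0.24 and rose by 0.32 ± 0.05. Of the 6 shared p53 targets, in lines without normal p53, 3 were lower in Huh7 and higher in Hep3B and 1 was higher in both. Without a call in Hep3B, 1 was lower in Huh7 and 1, SESN1, was higher. GDF15, a stress cytokine, rose by 1.24 ± 0.06 in Hep3B and fell by 1.03 in Huh7, and PLK3, a stress kinase, rose by 0.92 ± 0.11 and fell by 1.27. BOK and BNIP3, both of the BCL2 family, rose in both lines, by 1.82 ± 0.08 and 0.55 ± 0.1 and by 0.31 ± 0.08 and 0.9 ± 0.09, and BAK1, which permeabilizes mitochondria, rose by 0.32 ± 0.07 and fell by 0.41. Of the ER chaperones, HSP90B1 fell by 0.56 and rose by 0.19 ± 0.05, while EDEM1, which marks misfolded proteins, rose by 0.39 ± 0.06 and fell by 0.46.

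The size and direction of the changes moved with the GC content of the transcript, in opposite senses in the lines. For the 3769 symbols (97.0%) with a RefSeq transcript in the reference, Pearson's r with GC was 0.14 for the change in Hep3B, -0.27 for the change in Huh7 and -0.29 for the difference (Spearman's rho 0.16, -0.31 and -0.33), across genes and without a p. With the symbols split into 4 equal bins from lowest to highest GC, the median difference went from 0.33 through 0.07 and -0.24 to -0.54. Genes higher in Huh7 and lower in Hep3B numbered 215, 135, 84 and 36 over these bins and genes lower in Huh7 and higher in Hep3B 73, 134, 169 and 253, while genes higher in both ranged from 92 to 131 and genes lower in both from 95 to 153. After subtraction of the GC trend within each line, an alternative chosen after the data were seen, 1547 symbols were called in both lines, 773 alike and 774 opposite, and COL1A1, LOXL2, FSCN1 and CXCL5 kept their calls and directions. The part of GC content in the other results was not tested.

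**Figure D4:**
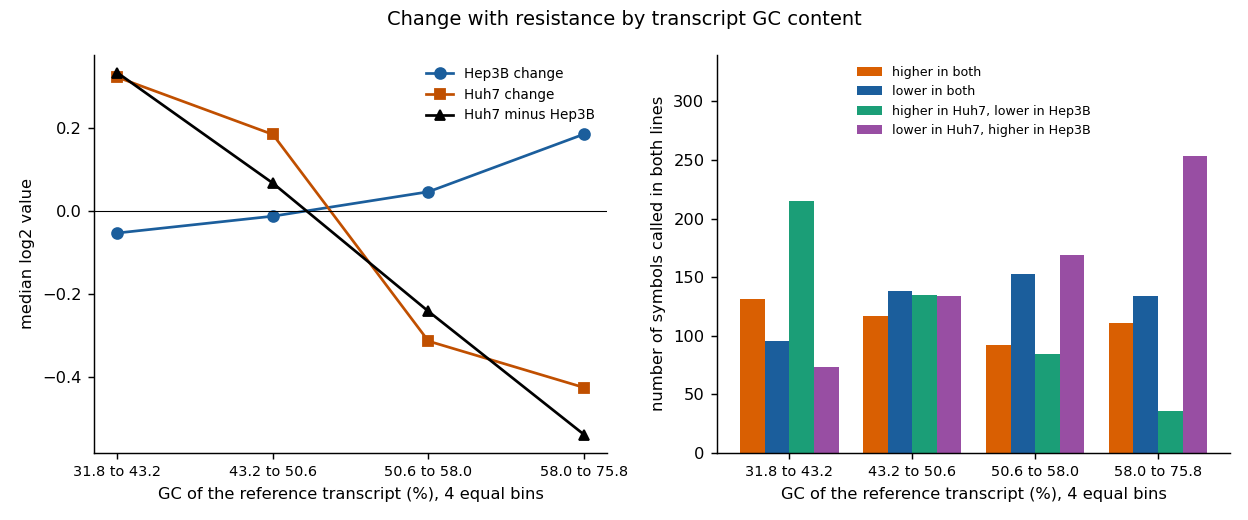
Left, median log2 change in Hep3B (circles) and Huh7 (squares) and median difference (triangles) of the 3769 symbols with a known transcript, by 4 equal bins of transcript GC content in percent; right, number of symbols called in both lines in each class by the same bins. The difference falls from 0.33 to -0.54 with rising GC, and the count of genes lower in Huh7 and higher in Hep3B rises from 73 to 253.

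Change also ran along chromosomes. Of 77 shared genes on chromosome 18, 70 were higher in resistant Huh7, with median changes of 0.08 in Hep3B and 0.66 in Huh7, and the difference was called higher in 51 and lower in 6. On chromosome 12 the shift lay mainly in Hep3B: the median change of 197 genes was -0.37 there and 0.25 in Huh7, and 68 were called higher in Huh7 and lower in Hep3B against 12 the reverse. Chromosome 21 (35 genes, -0.46 and 0.25) and chromosome 15 (87 genes, -0.39 and 0.17) had the same signs. Chromosome 19 (304 genes, 0.17 and -0.51) and the X chromosome (103 genes, 0.10 and -0.44) had the opposite ones. With GC-adjusted changes the median difference was 0.555 on chromosome 18, 0.50 on chromosome 12 and -0.58 on the X chromosome, but -0.10 on chromosome 19. On chromosome 15, where 44 genes were higher and 43 lower in resistant Huh7, the GC-adjusted median change in Huh7 was -0.066. On chromosome 21 the GC-adjusted medians were -0.43 in Hep3B and 0.08 in Huh7.

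**Figure D5:**
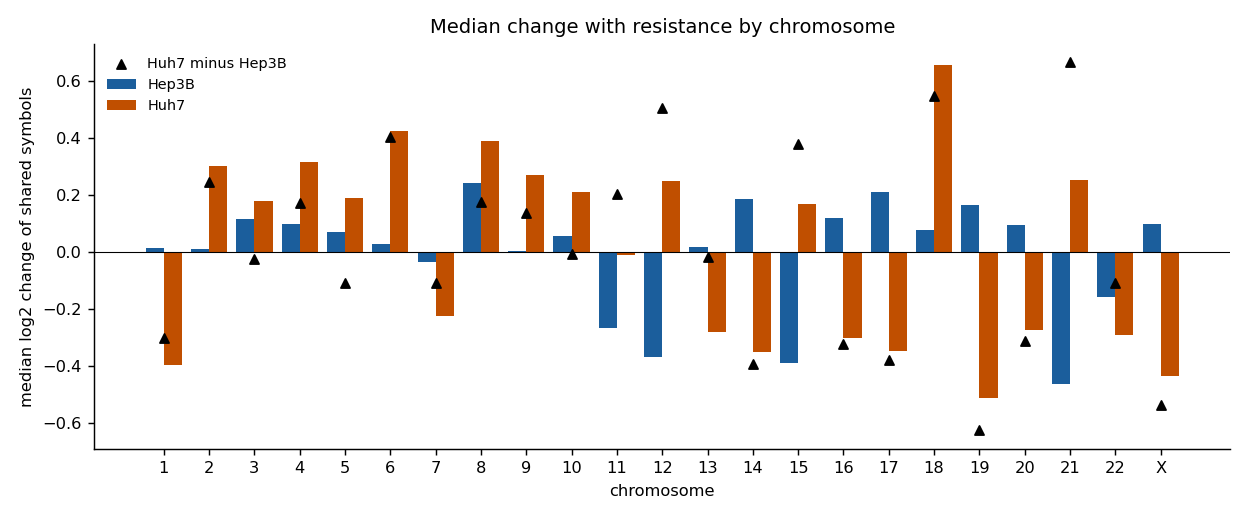
Median log2 change with resistance of the shared symbols on each chromosome in Hep3B and Huh7 (bars) and median difference, Huh7 minus Hep3B (triangles). Chromosome 18 is highest in Huh7 at 0.66, and chromosomes 12, 15 and 21 are below 0 in Hep3B and above 0 in Huh7. The medians shown are without GC adjustment.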

How the data were processed

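Total RNA from Hep3B and Huh7 cells was sequenced with standard Illumina libraries, per the labels' protocols; the build was GRCh37 per the submitters' processing notes, while aligner and counter are not given there. The Hep3B table deposited by the authors holds signal values equal to 2 times the square root of scaled reads plus 0.375 per RefSeq transcript, with the authors' log2 fold changes and p-values; the Huh7 table holds counts for Ensembl genes that the authors had scaled by a library factor, also a deposited signal, with the same columns. Squaring and dividing by 4, and undoing the factors, gave whole reads within 0.05 for 100% of values tested in every library, so edgeR 4.0.16 and DESeq2 1.42.0 could be run as alternatives. One Hep3B entry without a name (0.000119% of reads) was left out. The Huh7 table lists only entries with a deposited adjusted p-value up to 0.0499.

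Scaled reads were analysed as log2(scaled reads + 1) with limma 3.58.1 (trend and robust variances, R 4.3.3) within each line, after a filter of 1 scaled read in 3 libraries, with Benjamini-Hochberg adjustment over each table. The difference between lines was tested two-sided with the summed squared standard errors and Satterthwaite degrees of freedom, adjusted over 3885 symbols. On data simulated for this comparison over 3869 genes, 96% of 100 true differences of 1 and 99% of 100 of 2 (log2) were recovered and 5.34% of calls were false. These rates belong to those data only, which held 100 genes of each size, whereas the test called 2606 of the 3885 shared symbols. The rates of recovery and of false calls among the shared symbols, all of them selected in Huh7, were not tested.

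Some named genes were taken among those called and not overlapping in both lines with a group mean of at least 50 scaled reads in each. These were the 8 of each direction class with the largest smaller change and the 4 most positive and 4 most negative further differences. The 4 largest alike in each direction were taken in the same way. Up to 4 per gene list with the largest absolute difference were added without regard to calls, overlap or level. The members and lists were chosen with earlier results of these data known. The endothelial, leukocyte and cholangiocyte marker lists serve only as checks. Some genes that these rules name are not reported here.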

Additional observations from a re-analysis of the deposited data

Results flagged for a closer look

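The change with resistance differed between Huh7 and Hep3B by the test of the difference itself for the following genes named for their class, their difference or their likeness; each value is the log2 change in Huh7 minus that in Hep3B. Genes named only from a list are given with their values in the report.

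Among genes lower in resistant Huh7 and higher in resistant Hep3B, the difference was -10.70 for COL1A1, -10.47 for IRF8, -9.80 for APBB1IP, -8.97 for LOXL2 and -7.60 for PDGFB. It was -7.28 for ARHGAP23, -6.36 for UTS2R, -5.81 for OLFML2A, -5.30 for FSCN1, -5.13 for UCHL1 and -4.92 for ENO2 in the same class.

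Among genes higher in resistant Huh7 and lower in resistant Hep3B, the difference was 4.89 for RFX6, 4.59 for CXCL5, 4.19 for UCA1, 4.11 for TMTC2, 4.06 for SCGN and 3.89 for SLC6A14. It was 3.77 for SPTLC3, 3.00 for DZIP1L, 2.81 for FABP1, 2.65 for MPZL2, 2.57 for CP and 2.26 for FAM86C2P in the same class.

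Genes that changed in 1 direction in both lines also differed in size. Among those higher in both, the difference was 2.0 for SULT1E1, -3.23 for ITGB8, -1.84 for GALNT6, -0.96 for ITGA3 and -0.69 for NYNRIN. Among those lower in both it was 1.66 for INHBB, -1.59 for MYBPC3, -0.95 for NID2, -0.30 for ALPK3 and 0.18 for AGT.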

How the results depend on the processing

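Of 28 alternatives, 2 were chosen after seeing the data, the GC adjustment and leaving the 0.375 offset in the Hep3B values. Restricted to the 1927 symbols with 1 RefSeq transcript, and so with fewer genes by construction, the counts were 277 higher in both, 311 lower in both, 281 higher in Huh7 and lower in Hep3B and 377 the reverse, with 662 differences higher and 808 lower in Huh7. With GC-adjusted changes 422 genes were lower in Huh7 and higher in Hep3B, beside 646 in the main fit, and 352 the reverse, beside 486. GC adjustment also sets the median change of each line to 0. Median centring, without regard to GC, gave 434 and 576. The cause was not tested. Apart from the restricted set and the GC adjustment, the alternatives kept all 6 counts within 1.5 times. Between 50.03% and 54.9% of the genes called in both lines were opposite in every alternative. Reversed differences occurred only with GC adjustment: ALPK3 0.12, CCNG2 -0.27, CYP27A1 0.40 and B2M -0.089; the cause was not tested. GC adjustment also ended the call in both lines for FGF19, AGXT, APOB, AFP, APOH, SP100, RPL4, BAK1 and E2F1. It likewise moved COX4I1, ABCG2, NOTUM, HSP90B1, CCNA2 and SLC7A11 out of their class of calls. Median centring ended the call in both lines for MERTK, COX4I1 and E2F1, and the joint fit for CDX2, ABCG2 and NOTUM. Quantile normalization ended it for AFP, HSP90B1, CCNA2 and NOTUM, and the authors' fold changes for PSMD3.

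Leaving out 1 library at a time gave 402 to 471 genes higher in both, 484 to 531 lower in both, 432 to 483 higher in Huh7 and lower in Hep3B and 569 to 642 the reverse, with 1128 to 1190 differences higher and 1336 to 1434 lower in Huh7. The split of differences was also 51.2% higher with quantile normalization, 49.6% with edgeR and 53.1% with DESeq2 and with GC adjustment. With a replicate block the counts were 530, 602, 538 and 728, with 1232 differences higher and 1489 lower. The replicate numbers carry no stated pairing. Same-numbered libraries correlated by 0.09 to 0.22 in Hep3B and 0.01 to 0.08 in Huh7, and other-numbered ones by -0.17 to 0.07 and -0.09 to 0.06. Only in Hep3B did every library correlate best with its own number, and whether libraries were paired was not tested.

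Precision is limited by 3 libraries per group and, for genes with several RefSeq transcripts, by few reads in Hep3B.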
